A study of Mus musculus with 11 samples.

Results

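The genes described here are 10 genes of mouse phagocytes that either encode receptors for the constant part of antibodies (Fc receptors) or belong with the adaptors that carry the signal of such receptors. The 10 are Fcgr1, Fcgr2b, Fcgr3, Fcgr4, Fcer1g, Tyrobp, Trem2, Lilra5, Aif1 and Ms4a7. They were chosen by name and matched through their Ensembl IDs, and all 10 were found among the 35584 genes of the first expression table, were present in the TPM table and were among the 13884 genes tested.

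Fc gamma receptors bind antibody that coats a particle or a complex. Fcgr1, Fcgr3 and Fcgr4 encode the activating receptors of the mouse, which signal through the FcR gamma chain encoded by Fcer1g. Fcgr2b encodes the inhibitory receptor, whose own tail carries an inhibitory motif (ITIM). Tyrobp encodes DAP12, an adaptor that like the FcR gamma chain carries an activating motif (ITAM), which recruits the kinase Syk once phosphorylated. Trem2, a lipid-sensing receptor of macrophages, pairs with DAP12, and LILRA5 pairs with the FcR gamma chain in human cells. Aif1 encodes IBA1, an actin-binding protein used as a macrophage marker, and Ms4a7 encodes a membrane protein of the MS4A family found on macrophages. In the heart these genes are known chiefly from resident macrophages and from monocytes that enter the tissue.

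RNA from the whole heart was sequenced in 11 libraries of 4 groups, all from male mice 8 to 12 weeks old. Macrophage-depleted mice (n = 3; labelled cTMs Depleted) carried the CD169-DTR allele, which puts the diphtheria toxin receptor in CD169-expressing cells, and received 0.01 µg of toxin per g of body weight 3 times a week for 3 weeks, with 21 days of depletion. Mertk-KO mice (n = 2) lack Mertk, a receptor with which macrophages engulf dying cells, according to their label, and LXR-DKO mice (n = 3; labelled LxRαβ DKO) lack both liver X receptors. WT mice (n = 3) received the same toxin. The labels do not state toxin for Mertk-KO and LXR-DKO mice, so genotype and toxin cannot be told apart there, and the allele and the depletion cannot be told apart in Macrophage-depleted mice. The labels do not tie the libraries to individual mice. All p-values therefore measure only the spread between libraries, which may be technical.

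The libraries held 10938600 to 20722295 estimated reads. Siglec1, which encodes CD169, stood at 33.8, 2.12 and 0.719 normalised counts in Macrophage-depleted hearts, against 53.4 to 64.3 in WT hearts, so the first Macrophage-depleted library kept more of it than the others, and the log2 fold change of -3.36 did not pass (limma adjusted p 0.178). The heart label was checked with 8 cardiomyocyte markers, which summed to 807005 to 1016200 normalised counts per library. Mertk had 75.7 and 89.4 normalised counts in Mertk-KO hearts, against 131, 147 and 130 in WT hearts, so it was lower but not absent (log2 fold change -0.71, limma adjusted p 0.0408). It also lay below every WT library in Macrophage-depleted and LXR-DKO hearts, with means of 98.0 and 98.9. Mertk-KO hearts were not called against these groups (log2 fold changes -0.22 and -0.26, limma adjusted p 0.438 and 0.470), so the Mertk level did not single out the knockout. The liver X receptor genes Nr1h3 and Nr1h2 were lower in LXR-DKO hearts (log2 fold changes -2.50 and -2.52, limma adjusted p 6.01e-07 and 3.25e-08). The summed level of 14 general macrophage markers was 1818 to 3624 normalised counts in Macrophage-depleted hearts, 5561 and 8433 in Mertk-KO hearts, 3700 to 4868 in LXR-DKO hearts and 4499 to 5410 in WT hearts, and none of the 14 was at 0 in all libraries. In whole tissue, fewer macrophages and less RNA of a gene per macrophage cannot be told apart.

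In the genome (GRCm38, GENCODE vM21) 4 of the 10 genes lie within 276 kilobases of chromosome 1: Fcgr2b (chr1:170958617-170976547, minus strand), Fcgr4 (chr1:171018920-171029761, plus strand), Fcgr3 (chr1:171051174-171064935, minus strand) and Fcer1g (chr1:171229572-171234365, minus strand). Fcgr1 lies apart on chromosome 3 (chr3:96282909-96293969). Lilra5 (chr7:4237754-4243463) and Tyrobp (chr7:30413760-30417585) share chromosome 7, Trem2 (chr17:48346401-48354147) and Aif1 (chr17:35170991-35176068) share chromosome 17, and Ms4a7 (chr19:11321039-11336146) is on chromosome 19.

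Promoter windows of these genes were searched for short sequence motifs, as planned. PU.1, encoded by Spi1, is the ETS-family factor that drives many myeloid promoters and binds purine-rich DNA with the core GAGGAA. RefSeq (GRCm38.p6) held a window of 250 bases before to 50 bases after the start for 9 of the 10 genes. The letters GAGGAA, or TTCCTC on the other strand, were found in 7 of these 9 windows, and in 28.3% of all 32817 windows of the same length. Fcgr2b, whose window lacks the core, was called in a contrast below and is not printed, nor are Aif1 and Ms4a7, whose windows hold it. Trem2 is printed although it was called in no contrast. The windows of Fcgr1, Fcgr3, Fcgr4, Lilra5 and Trem2 follow, with that core in capitals, together with Fcer1g, whose window lacks it. They are written 5′ to 3′ on the gene's own strand: Fcgr1 at chr3:96293920-96294219 (minus), Fcgr3 at chr1:171059354-171059653 (minus, from a RefSeq start inside the GENCODE gene), Fcgr4 at chr1:171018676-171018975 (plus), Lilra5 at chr7:4237504-4237803 (plus), Trem2 at chr17:48346151-48346450 (plus) and Fcer1g at chr1:171234300-171234599 (minus).
Fcgr1: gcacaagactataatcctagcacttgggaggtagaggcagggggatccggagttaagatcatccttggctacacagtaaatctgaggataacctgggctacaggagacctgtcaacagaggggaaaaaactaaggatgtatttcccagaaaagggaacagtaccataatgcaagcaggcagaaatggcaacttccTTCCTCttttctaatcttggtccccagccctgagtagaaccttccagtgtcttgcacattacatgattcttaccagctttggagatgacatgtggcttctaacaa
Fcgr3: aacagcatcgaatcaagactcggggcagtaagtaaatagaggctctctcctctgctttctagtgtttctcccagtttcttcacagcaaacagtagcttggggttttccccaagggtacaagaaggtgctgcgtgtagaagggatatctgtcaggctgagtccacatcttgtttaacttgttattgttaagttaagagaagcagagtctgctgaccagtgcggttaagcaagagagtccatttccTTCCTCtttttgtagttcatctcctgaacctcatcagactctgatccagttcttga
Fcgr4: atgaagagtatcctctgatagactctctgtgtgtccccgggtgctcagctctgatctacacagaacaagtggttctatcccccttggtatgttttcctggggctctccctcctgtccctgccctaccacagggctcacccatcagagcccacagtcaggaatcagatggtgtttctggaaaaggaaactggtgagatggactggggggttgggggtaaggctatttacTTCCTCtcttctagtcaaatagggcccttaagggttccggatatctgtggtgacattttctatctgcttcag
Lilra5: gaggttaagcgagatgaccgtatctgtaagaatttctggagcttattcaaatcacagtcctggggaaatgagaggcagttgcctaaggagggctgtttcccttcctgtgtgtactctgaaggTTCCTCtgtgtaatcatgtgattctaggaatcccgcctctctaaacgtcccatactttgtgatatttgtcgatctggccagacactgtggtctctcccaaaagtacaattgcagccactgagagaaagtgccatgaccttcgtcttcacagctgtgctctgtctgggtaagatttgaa
Trem2: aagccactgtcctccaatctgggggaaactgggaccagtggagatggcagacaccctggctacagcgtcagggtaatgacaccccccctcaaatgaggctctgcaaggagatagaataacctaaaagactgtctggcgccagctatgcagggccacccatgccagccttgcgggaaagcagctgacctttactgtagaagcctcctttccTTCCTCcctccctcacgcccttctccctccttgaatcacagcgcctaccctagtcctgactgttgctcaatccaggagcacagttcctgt
Fcer1g: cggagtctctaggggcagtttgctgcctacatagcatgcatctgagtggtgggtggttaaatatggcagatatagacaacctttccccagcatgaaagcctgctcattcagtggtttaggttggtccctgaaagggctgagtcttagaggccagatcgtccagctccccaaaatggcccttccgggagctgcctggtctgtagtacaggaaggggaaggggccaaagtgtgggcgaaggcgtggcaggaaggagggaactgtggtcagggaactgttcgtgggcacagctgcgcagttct

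The core lay within the last 60 bases before the start in Fcgr1 (positions -55 to -50), Trem2 (-40 to -35), Fcgr4 (-22 to -17), Aif1 (-7 to -2) and Fcgr3 (-6 to -1). In Lilra5 it lay farther upstream (-128 to -123), and in Ms4a7 after the start (44 to 49). The windows of Fcgr2b and Fcer1g held no match. On both strands again, the AP-1 sequence TGACTCA was in 0 of 9 windows (5.20% of all windows), the ETS sequence CCGGAA in 3 of 9 (14.9%) and the nuclear receptor sequence AGGTCA in 4 of 9 (16.3%). These matches describe letters in a window and were not tied to binding.

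The comparison of Macrophage-depleted with WT hearts asks which of the genes depend on CD169-expressing macrophages. Lilra5 fell to 12.7% of its WT mean. Of the Fc receptors, Fcgr3 and Fcgr1 lay below every WT library without passing the test, and Fcgr4 lay above every WT library. The adaptors Fcer1g and Tyrobp and the receptor Trem2 overlapped WT.

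Lilra5 had 7.04, 2.12 and 1.44 normalised counts in Macrophage-depleted hearts, against 19.1, 36.9 and 27.2 in WT hearts. Every depleted library was below every WT library, and the depleted values rest on 5, 3 and 2 estimated reads. The log2 fold change was -2.82 (SE 0.49, 95% interval -3.88 to -1.76, limma adjusted p 0.0426). This was the single call among the 10 genes, where 0.238% of all genes passed in either direction. The call was close to the threshold of 0.05: the adjusted p was 0.155 and 0.202 without Macrophage-depleted 2 or 3, 0.130, 0.168 and 0.187 without WT 1, 2 or 3, and 0.0758, 0.0874 and 0.0675 without LXR-DKO 1, 2 or 3, which enter the shared estimate of the spread. It was 0.0137 without Macrophage-depleted 1, the library that kept most Siglec1, and the fold change stayed between -3.33 and -2.47 as any 1 library was left out.

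Among the activating Fc receptors, Fcgr3 (CD16) had 83.2, 59.8 and 44.0 normalised counts in Macrophage-depleted hearts and 89.2, 121 and 111 in WT hearts. Fcgr1, the high-affinity receptor CD64, had 15.5, 14.1 and 5.04 in Macrophage-depleted hearts and 26.6, 21.5 and 31.4 in WT hearts. For both genes the groups did not overlap, and the log2 fold changes were -0.81 for Fcgr3 (SE 0.22, limma adjusted p 0.272) and -1.25 for Fcgr1 (SE 0.46, limma adjusted p 0.490). Fcgr4, the low-abundance receptor CD16-2, had 9.85, 7.78 and 14.6 in Macrophage-depleted hearts and 2.13, 7.17 and 7.34 in WT hearts. All depleted values of Fcgr4 were the higher ones, the second by less than 1 count, and the log2 fold change of 0.93 did not pass (SE 0.56, limma adjusted p 0.828). In all, 3 of the 10 genes lay wholly below WT, where 8.15% of all genes did, and 1 lay wholly above, where 8.51% did.

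The inhibitory receptor Fcgr2b had 115, 92.0 and 48.4 normalised counts in Macrophage-depleted hearts, against 109, 152 and 133 in WT hearts. Its first depleted library lay inside the WT range and the others below it (log2 fold change -0.70, SE 0.26, limma adjusted p 0.528).

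The adaptors were closer to WT. Fcer1g had 61.9, 65.8 and 55.4 normalised counts in Macrophage-depleted hearts, against 55.3, 81.9 and 68.1 in WT hearts, and Tyrobp had 73.2, 68.6 and 47.5, against 89.3, 95.2 and 71.3. The groups overlapped for both, and the log2 fold changes were -0.15 for Fcer1g (95% interval -0.70 to 0.40, limma adjusted p 0.985) and -0.44 for Tyrobp (-1.08 to 0.20, limma adjusted p 0.865). Trem2 had 40.8, 31.8 and 12.7 in Macrophage-depleted hearts and 25.5, 38.8 and 12.6 in WT hearts. Both groups spanned nearly the same range, and the interval of the Trem2 difference, -0.90 to 1.16 on the log2 scale, was wide.

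Aif1 had 16.9, 9.90 and 0 normalised counts in Macrophage-depleted hearts, against 12.8, 21.5 and 22.0 in WT hearts. Ms4a7 had 30.5, 24.9 and 1.53 in Macrophage-depleted hearts, against 42.5, 27.6 and 27.0 in WT hearts. In both genes the third depleted library stood far below the first and second, and a count of 0 for Aif1 there allows up to 3 reads, or 2.16 normalised counts, for counting error only. The log2 fold changes were -1.73 for Aif1 (SE 0.85, limma adjusted p 0.703) and -1.36 for Ms4a7 (SE 0.77, limma adjusted p 0.798).

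Across the 10 genes, 8 had a log2 fold change below 0 in this comparison, as 49.2% of all genes had, and the median was -0.75, beside 0.00293 over all genes tested. The third Macrophage-depleted library was the lowest of the 11 for 7 of the 10 genes, and it also had the lowest macrophage marker sum (1818, against 3053 and 3624 in the other depleted libraries). Of the 14 macrophage markers, limma called 0, and 10 had an unadjusted p below 0.05. All 14 had a log2 fold change below 0, with a median of -0.90. Of 10 markers of resident cardiac macrophages, which include Siglec1, limma called 2 lower, where 0.158% of all genes were. Of these 10, 9 had an unadjusted p below 0.05 and all 10 had a log2 fold change below 0, with a median of -1.66. Markers of fat cells were lower too: 8 adipocyte markers summed to 23.1 to 38.4 in Macrophage-depleted hearts, against 83.9 to 187 in WT hearts, and the 5 of them that were tested all had a log2 fold change below 0 and an unadjusted p below 0.05, with a median of -1.83 and 0 called. Their part in these differences was not tested. At an unadjusted p below 0.05, 4 of the 10 genes differed, where 7.53% of all genes did.

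**Figure D1:**
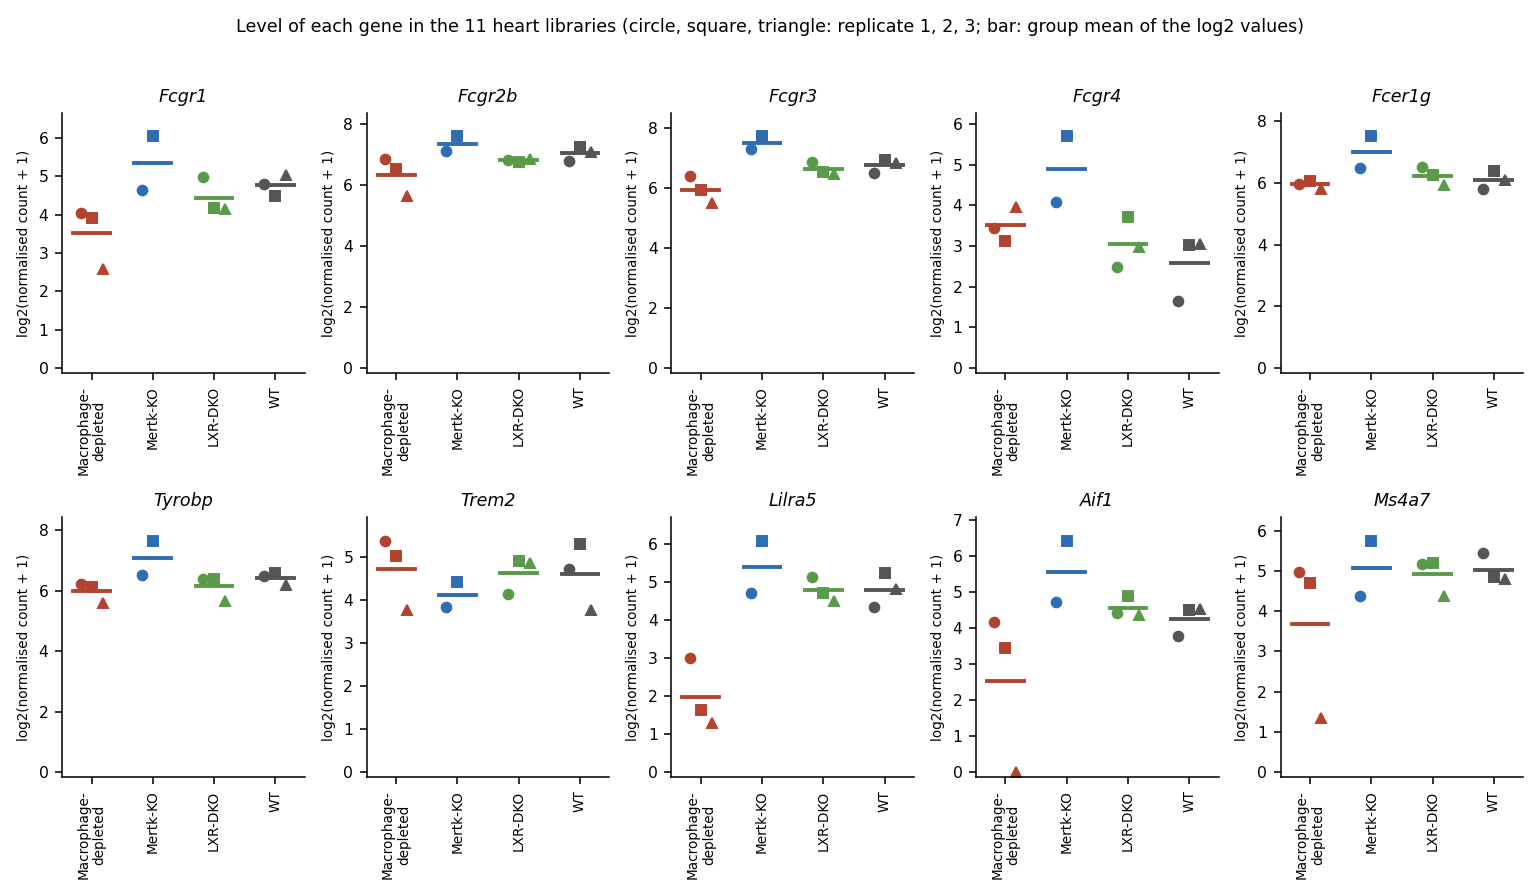
Level of each of the 10 genes in every library, on a log2(normalised count + 1) axis; each point is 1 library, its shape the replicate number, and the bar the group mean of the log values. Lilra5 lies lower in all Macrophage-depleted libraries than elsewhere, and Mertk-KO 2 is the highest library for 9 of the 10 genes, all but Trem2.

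Mertk-KO hearts were compared with WT hearts to ask what loss of the phagocytic receptor Mertk does to the tissue. Fcgr4 rose 4.95-fold on the log2(value + 1) scale. Fcer1g, Fcgr3 and Aif1 lay above every WT library without passing the threshold. The log2 fold change was above 0 for 9 of the 10 genes, all but Trem2, and above 0 for 48.3% of all genes. Between the Mertk-KO libraries, the second was above the first for all 10 genes.

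Fcgr4 had 15.9 and 50.6 normalised counts in Mertk-KO hearts, against 2.13, 7.17 and 7.34 in WT hearts. Both Mertk-KO libraries were above all WT libraries, which held 2, 7 and 7 estimated reads of the gene. The log2 fold change was 2.31 (SE 0.62, 95% interval 0.95 to 3.67, limma adjusted p 0.0421), the only call among the 10 genes, where 9.27% of all genes passed. Without Mertk-KO 2 it was 1.50 with an adjusted p of 0.182, and without Mertk-KO 1 it was 3.11 with 0.0204. Leaving out WT 1, 2 or 3 gave 0.111, 0.0821 and 0.0827, leaving out Macrophage-depleted 1, 2 or 3 gave 0.0558, 0.0521 and 0.0568, and leaving out LXR-DKO 1 or 3 gave 0.0557 and 0.0508. Without Mertk-KO 1 Fcer1g and Tyrobp were also called, with adjusted p of 0.00882 and 0.0308.

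Fcer1g, the chain with which Fcgr4 assembles, had 87.6 and 181 normalised counts in Mertk-KO hearts and 55.3, 81.9 and 68.1 in WT hearts. Fcgr3 had 155 and 208 in Mertk-KO hearts and 89.2, 121 and 111 in WT hearts. Both lay wholly above WT, with log2 fold changes of 0.89 for Fcer1g (SE 0.28, limma adjusted p 0.0675) and 0.75 for Fcgr3 (SE 0.25, limma adjusted p 0.0745). The 4 genes that lay wholly above WT were Fcgr4, Fcer1g, Fcgr3 and Aif1, where 21.4% of all genes did so.

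Tyrobp had 90.3 and 200 normalised counts in Mertk-KO hearts, against 89.3, 95.2 and 71.3 in WT hearts, with the first inside the WT range and the second above it (log2 fold change 0.66, limma adjusted p 0.207). The same held for Fcgr2b (138 and 192), Fcgr1 (23.9 and 64.7) and Lilra5 (25.2 and 66.8), whose log2 fold changes were 0.32, 0.57 and 0.60. Aif1 had 25.2 and 85.1, the widest gap between the Mertk-KO libraries at 3.37-fold, and its log2 fold change of 1.30 had an SE of 0.95. Ms4a7 had 19.8 and 52.8, on either side of the WT range, and a log2 fold change of 0.04. Trem2 had 13.3 and 20.5, both within the WT range of 12.6 to 38.8 (log2 fold change -0.47, 95% interval -1.62 to 0.67, limma adjusted p 0.595).

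Over the 10 genes the median log2 fold change was 0.63, beside -0.01 for all genes tested, and 3 genes had an unadjusted p below 0.05, where 28.6% of all genes did. The ratio of Mertk-KO 2 to Mertk-KO 1 ran from 1.34 for Fcgr3 and 1.39 for Fcgr2b to 3.18 for Fcgr4 and 3.37 for Aif1. Markers of other cells differed between the same libraries: 8 NK cell markers summed to 23.9 in the first Mertk-KO library and 83.9 in the second (19.2 to 33.6 in WT hearts), and 10 neutrophil markers to 98.9 and 130 in Mertk-KO hearts, against 77.9 to 90.5 in WT hearts. Markers of atrial muscle were also lower in Mertk-KO hearts: 6 of them summed to 3294 and 1948 in Mertk-KO hearts, against 3742 to 26260 in WT hearts, and the 5 tested had a median log2 fold change of -3.97, 5 of 5 below 0, with 3 at an unadjusted p below 0.05 and 0 called. The part of these cells in the Fcgr4 result was not tested.

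Liver X receptors control lipid handling in macrophages, and hearts lacking them were set against WT hearts. None of the 10 genes passed the limma test, where 0.418% of all genes did, none had an unadjusted p below 0.05, where 11.5% did, and none lay wholly above or wholly below WT, where 12.0% and 10.7% of all genes did. The log2 fold changes ran from -0.34 for Fcgr1 to 0.48 for Fcgr4, with a median of -0.06.

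The abundant genes gave the narrowest intervals. Fcgr3 had 115, 91.7 and 87.7 normalised counts in LXR-DKO hearts, against 89.2, 121 and 111 in WT hearts, and the 95% interval of its log2 fold change was -0.61 to 0.36. Fcgr2b had 113, 107 and 114 in LXR-DKO hearts, a tighter set than the 109, 152 and 133 of WT hearts (interval -0.80 to 0.35). Fcer1g had 89.96, 74.8 and 59.6 in LXR-DKO hearts and 55.3, 81.9 and 68.1 in WT hearts (interval -0.43 to 0.68). Tyrobp had 82.4, 83.3 and 49.8 in LXR-DKO hearts and 89.3, 95.2 and 71.3 in WT hearts (interval -0.91 to 0.37). In each of these 4 genes the ranges overlapped.

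For low genes the intervals were wide, as in Aif1, at 20.4, 29.0 and 19.5 in LXR-DKO hearts and 12.8, 21.5 and 22.0 in WT hearts (-1.56 to 2.15). Lilra5 had 34.3, 25.3 and 21.5 in LXR-DKO hearts and 19.1, 36.9 and 27.2 in WT hearts, with one range inside the other and a log2 fold change of -0.01. Fcgr1 had 30.6, 16.9 and 16.6 in LXR-DKO hearts and 26.6, 21.5 and 31.4 in WT hearts, with LXR-DKO 2 and LXR-DKO 3 below every WT library. Fcgr4 was low in both groups, at 4.63, 12.1 and 6.83 in LXR-DKO hearts and 2.13, 7.17 and 7.34 in WT hearts. Trem2 had 16.7, 29.0 and 28.3 in LXR-DKO hearts and 25.5, 38.8 and 12.6 in WT hearts. Ms4a7 had 35.1, 35.9 and 19.9 in LXR-DKO hearts and 42.5, 27.6 and 27.0 in WT hearts, with log2 fold changes of 0.04 for Trem2 and -0.11 for Ms4a7. The ranges overlapped for each of these genes.

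**Figure D2:**
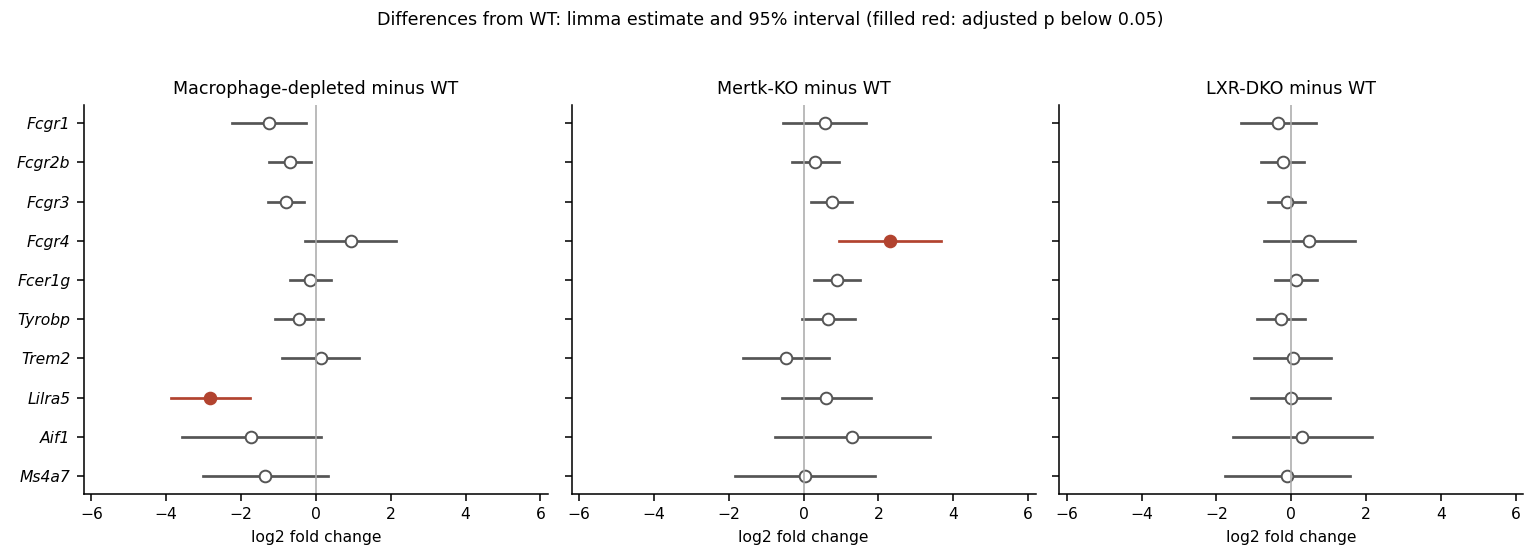
Limma log2 fold change of each gene against WT with its 95% interval, for Macrophage-depleted, Mertk-KO and LXR-DKO hearts; filled red points have an adjusted p below 0.05. Lilra5 in Macrophage-depleted hearts (-2.82) and Fcgr4 in Mertk-KO hearts (2.31) are the filled points, and the 3 panels share the same WT libraries.

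The perturbed groups were also compared with each other, in contrasts where WT hearts enter only the shared estimate of the spread. Between Mertk-KO and Macrophage-depleted hearts 7 of the 10 genes were higher in Mertk-KO hearts, where 9.39% of all genes were. They were the receptors Fcgr3, Fcgr1, Fcgr2b and Lilra5, the adaptors Fcer1g and Tyrobp, and Aif1. Fcgr4, Ms4a7 and Trem2 did not pass. In 8 genes, these 7 and Fcgr4, both Mertk-KO libraries lay above all depleted ones, as in 22.6% of all genes.

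Fcgr3 averaged 182 ± 37.6 normalised counts in Mertk-KO hearts (SD, n = 2) and 62.3 ± 19.7 in Macrophage-depleted hearts (SD, n = 3), a log2 fold change of 1.56 (SE 0.25, limma adjusted p 0.00382). Lilra5 averaged 46.0 ± 29.4 in Mertk-KO hearts and 3.53 ± 3.06 in Macrophage-depleted hearts, a log2 fold change of 3.42 (SE 0.55, limma adjusted p 0.00382). These had the smallest p-values of the 10 genes, and each was called in 20 of 21 alternatives. The log2 fold changes of the others were 1.82 for Fcgr1, 1.01 for Fcgr2b, 1.04 for Fcer1g and 1.11 for Tyrobp, with limma adjusted p of 0.0282, 0.0318, 0.0256 and 0.0346. Aif1 had 3.03 (SE 0.95, limma adjusted p 0.0413), a value set in part by its 0 in one depleted library, and with a pseudocount of 0.5 the adjusted p was 0.0537. It was called in 2 of the 11 fits that each left out a library, with adjusted p from 0.0213 to 0.188.

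Fcer1g averaged 134 ± 66.0 normalised counts in the 2 Mertk-KO libraries against 61.0 ± 5.25 in the 3 depleted ones, and Tyrobp 145 ± 77.9 against 63.1 ± 13.7. The number of calls fell to 2 without Mertk-KO 2 or without Macrophage-depleted 3, and to 3 without Macrophage-depleted 2. Fcgr3 and Lilra5 were called in each of those fits. The log2 fold change was above 0 for 9 of the 10 genes, as for 48.2% of all genes, and below 0 for Trem2, at 16.9 ± 5.09 in Mertk-KO hearts, against 28.4 ± 14.3 in Macrophage-depleted hearts (log2 fold change -0.60, limma adjusted p 0.439). The median over the 10 genes was 1.38, beside -0.02 over all genes tested, and the 14 macrophage markers had a median of 1.31 with 10 called higher.

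Between LXR-DKO and Macrophage-depleted hearts Lilra5 was the only gene called, at 27.0 ± 6.56 normalised counts in LXR-DKO hearts and 3.53 ± 3.06 in Macrophage-depleted hearts (SD, n = 3 each; log2 fold change 2.81, SE 0.49, limma adjusted p 0.0104). In this contrast 1.89% of all genes were called higher. Without LXR-DKO 1 the adjusted p was 0.0579. Fcgr3, Fcgr1 and Aif1 also lay wholly above the depleted libraries, where 14.6% of all genes did, but did not pass (limma adjusted p 0.112, 0.282 and 0.203). Lilra5 was thus called in each contrast that held the Macrophage-depleted libraries, which those contrasts share.

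Between Mertk-KO and LXR-DKO hearts limma called 0 of the 10 genes, where 2.46% of all genes passed, and 4 had an unadjusted p below 0.05, where 20.9% did. Those 4 were Fcgr3 (log2 fold change 0.88, limma adjusted p 0.0783), Fcgr4 (1.83, 0.123), Tyrobp (0.93, 0.132) and Fcer1g (0.76, 0.152). Of these, Fcgr3, Fcgr4 and Tyrobp lay wholly above LXR-DKO, as did Fcgr2b, where 15.1% of all genes did. Without Mertk-KO 1 limma called 2, Fcer1g and Tyrobp.

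**Figure D3:**
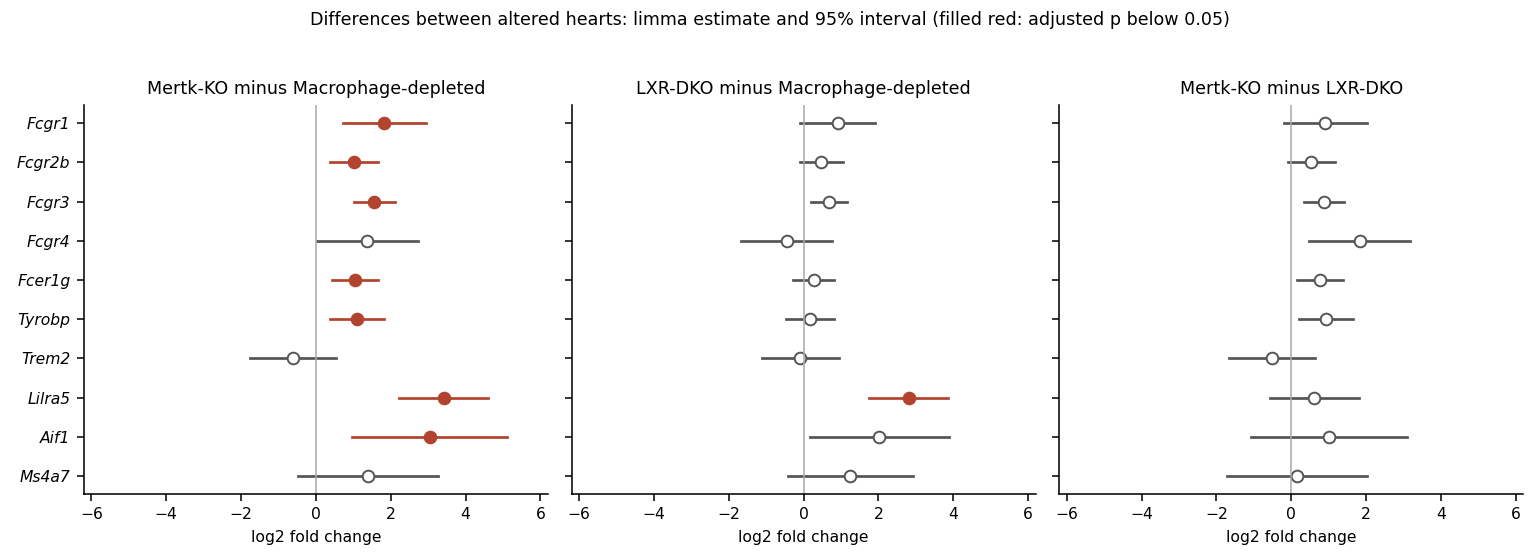
Limma log2 fold change of each gene with its 95% interval in the contrasts between perturbed groups; filled red points have an adjusted p below 0.05. In the contrast of Mertk-KO with Macrophage-depleted hearts 7 genes are filled, from 1.01 for Fcgr2b to 3.42 for Lilra5, while Trem2 lies at -0.60.

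Levels of different genes were compared only in the deposited TPM values, which are per transcript length. In WT hearts the adaptors were the most abundant, Tyrobp at 15.5 ± 2.43 TPM and Fcer1g at 10.5 ± 2.22 TPM (SD, n = 3). The receptors they serve were lower: Fcgr3 at 7.14 ± 0.838 TPM, Trem2 at 1.84 ± 1.14 TPM, Lilra5 at 1.08 ± 0.293 TPM, Fcgr1 at 1.06 ± 0.309 TPM and Fcgr4 at 0.414 ± 0.228 TPM. Fcgr2b stood at 6.30 ± 0.993 TPM, Aif1 at 2.97 ± 1.24 TPM and Ms4a7 at 2.06 ± 0.794 TPM. The WT libraries of neighbours in this order did not overlap between Tyrobp and Fcer1g, Fcer1g and Fcgr3, Fcgr2b and Aif1, or Fcgr1 and Fcgr4, and overlapped for the other neighbours. In every group Tyrobp had the highest and Fcer1g the second-highest mean, although their libraries overlapped in each group but WT. The lowest mean was that of Lilra5 in Macrophage-depleted hearts (0.132 ± 0.0805 TPM), Trem2 in Mertk-KO hearts (1.02 ± 0.131 TPM) and Fcgr4 in LXR-DKO (0.617 ± 0.243 TPM) and WT hearts. In each group but WT the libraries of that gene overlapped with those of the gene next above it.

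Because Csf1r, the receptor for the macrophage growth factor CSF-1, was itself at 419, 306 and 196 normalised counts in Macrophage-depleted hearts, against 576, 648 and 625 in WT hearts, each gene was expressed per 100 Csf1r counts of the same library. Relative to Csf1r, Lilra5 was still below the other groups in Macrophage-depleted hearts, at 1.68, 0.694 and 0.733, against 3.32 to 5.68 in WT hearts. Other genes went the other way. Fcer1g was at 14.8, 21.5 and 28.2 per 100 Csf1r in Macrophage-depleted hearts, against 9.60 to 12.6 in WT hearts, and Tyrobp at 17.5, 22.4 and 24.2, against 11.4 to 15.5. Trem2 was at 9.75, 10.4 and 6.48 in Macrophage-depleted hearts, against 2.01 to 5.99 in WT hearts, and Fcgr4 at 2.35, 2.54 and 7.42, against 0.369 to 1.17. All of these depleted values lay above every WT value. Csf1r was lower in every depleted library than in any WT library, so a gene whose own level did not change also rises in this ratio. The levels of Fcer1g, Tyrobp and Trem2 themselves overlapped WT. The share of all genes that rose in this way was not computed. For Fcgr2b and Fcgr3 the shift was smaller. Fcgr2b was at 24.6 to 30.1 in Macrophage-depleted and 19.0 to 23.4 in WT hearts. Fcgr3 was at 19.6 to 22.4 in Macrophage-depleted and 15.5 to 18.6 in WT hearts. The ratios of Fcgr1, Aif1 and Ms4a7 overlapped WT.

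In Mertk-KO hearts the same ratio was 23.6 and 26.5 for Fcgr3 and 2.42 and 6.43 for Fcgr4. It was 13.3 and 23.0 for Fcer1g and 3.84 and 10.8 for Aif1. Each of these genes lay above every WT library, while Fcgr1, Fcgr2b, Tyrobp, Lilra5 and Ms4a7 overlapped WT. Trem2 was at 2.02 and 2.60 per 100 Csf1r in Mertk-KO hearts, at the low end of the 2.01 to 5.99 of WT hearts. The ratios carry no test, since they were formed after the levels were known. Markers of monocytes and neutrophils, which also carry FcR gamma chain and DAP12 receptors, were not reduced with the macrophage markers. The 10 monocyte markers summed to 1380 to 1410 normalised counts in Macrophage-depleted hearts, against 1117 to 1306 in WT hearts. Most of this sum was a single gene, Ace, at 694 to 817 in Macrophage-depleted and 705 to 778 in WT hearts. Of the 10 markers 6 were tested, and all 6 had a log2 fold change above 0, with 2 at an unadjusted p below 0.05 and 0 called. Among them Ccr2, a receptor of recruited monocytes, had 180, 145 and 112 in Macrophage-depleted hearts, against 54.9, 74.1 and 61.4 in WT hearts. The 10 neutrophil markers summed to 81.8, 122 and 190 in Macrophage-depleted hearts, against 77.9 to 90.5 in WT hearts. The part of these cells in the ratios to Csf1r was not tested.

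**Figure D4:**
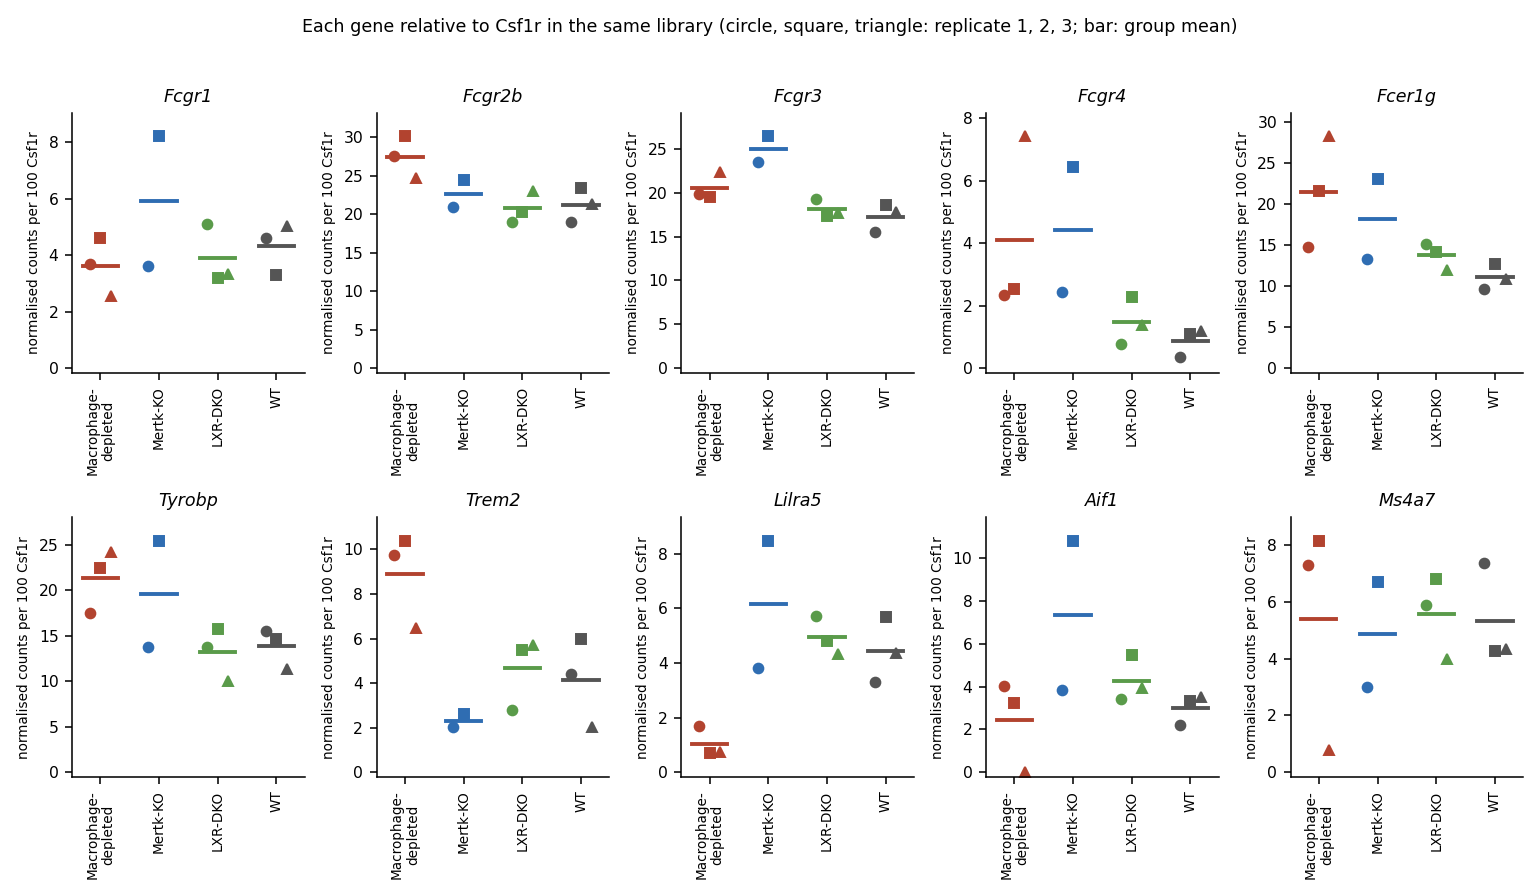
Each gene per 100 Csf1r normalised counts of the same library; each point is 1 library, its shape the replicate number, and the bar the group mean. In Macrophage-depleted hearts Lilra5 lies below all other libraries (0.694 to 1.68). There Fcer1g, Tyrobp, Trem2, Fcgr4, Fcgr2b and Fcgr3 lie above all WT libraries, and Csf1r itself was lower than in WT.

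The balance of activating to inhibitory receptor was described by Fcgr3, Fcgr4 and Fcgr1 per 100 Fcgr2b counts, a ratio of counts that is not per length. Fcgr3 was at 112 and 108.5 in Mertk-KO hearts, against 81.7, 79.4 and 83.5 in WT hearts, so that both Mertk-KO libraries were higher. It was at 72.3, 65.0 and 90.9 in Macrophage-depleted hearts and at 102, 85.5 and 76.9 in LXR-DKO hearts, on both sides of WT. Fcgr4 was at 11.6 and 26.4 in Mertk-KO hearts, at 8.56, 8.46 and 30.1 in Macrophage-depleted hearts and at 4.10, 11.2 and 5.99 in LXR-DKO hearts, against 1.95, 4.72 and 5.50 in WT hearts. Fcgr1 overlapped WT in every group. It was at 17.3 and 33.7 in Mertk-KO hearts, 13.5, 15.4 and 10.4 in Macrophage-depleted hearts and 27.1, 15.7 and 14.6 in LXR-DKO hearts, against 24.3, 14.2 and 23.6 in WT hearts. Fcgr3 and Fcgr2b have near-identical stretches: 14.3% of the 31-base words of Fcgr3 transcripts are also found in Fcgr2b, and 3.47% of those of Fcgr2b in the antisense gene Gm38204. Reads of these could be split between genes, and without stated use of strand reads of Fcgr2b and Gm38204 cannot be told apart.

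Other genes of the same pathways were followed in lists chosen for their function. Their counts stand beside the shares of all genes that passed against WT, 0.238% in Macrophage-depleted, 9.27% in Mertk-KO and 0.418% in LXR-DKO hearts, and that had an unadjusted p below 0.05, 7.53%, 28.6% and 11.5%. In lists this short these shares amount to few genes or none. Downstream of the ITAM, 26 of 27 genes were tested. Against WT, 2 fell in Mertk-KO hearts, the paracaspase Malt1 (84.4 normalised counts in Mertk-KO hearts, against 147 in WT hearts; log2 fold change -0.82, limma adjusted p 0.0244) and the exchange factor Vav3 (74.2 in Mertk-KO and 124 in WT hearts; -0.72, 0.0308), and limma called 0 in Macrophage-depleted or LXR-DKO hearts, with 2 and 1 at an unadjusted p below 0.05. Malt1 and the ubiquitin ligase Cbl were lower in Mertk-KO than in Macrophage-depleted hearts, as were 11.6% of all genes (log2 fold changes -0.84 and -0.49, limma adjusted p 0.0110 and 0.0340). The median of the 26 in Mertk-KO against WT hearts was 0.16, beside -0.01 for all genes. Syk, the kinase that binds the phosphorylated ITAM, averaged 450 in Macrophage-depleted, 433 in Mertk-KO, 416 in LXR-DKO and 400 in WT hearts.

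Of 24 other receptors that couple to the FcR gamma chain or DAP12, 11 were tested and 0 were called by limma against WT in any group, with 3, 2 and 1 of the 11 at an unadjusted p below 0.05 in Macrophage-depleted, Mertk-KO and LXR-DKO hearts, beside 7.53%, 28.6% and 11.5% of all genes. Between Mertk-KO and Macrophage-depleted hearts 2 were higher, as were 9.39% of all genes: Clec5a, at 24.6 normalised counts in Mertk-KO and 8.97 in depleted hearts (limma adjusted p 0.0253), and Pirb, at 130 in Mertk-KO and 55.4 in depleted hearts (limma adjusted p 0.00436). Cd300lb was lower in LXR-DKO than in Macrophage-depleted hearts, at 5.89 in LXR-DKO and 20.4 in depleted hearts (limma adjusted p 0.0480), as were 1.35% of all genes. Pirb is itself an inhibitory receptor and is in the ITIM list too. In that list 12 of 16 were tested, and Cd72, an inhibitory receptor known from B cells, was higher in Mertk-KO hearts, at 136 normalised counts there, against 47.8 in WT hearts (log2 fold change 1.48, limma adjusted p 0.0308). The ITIM list had a median of -0.30 in Macrophage-depleted, 0.46 in Mertk-KO and -0.24 in LXR-DKO hearts against WT, and the list of coupled receptors -0.28, 0.23 and -0.35, beside 0.00293, -0.015 and 0.00105 for all genes. Of 13 other Fc receptors and 8 other ITAM adaptors, 3 and 4 were tested and 0 were called in any of the 6 contrasts. Among them Trim21, the cytosolic antibody receptor, had 101 and 378 in the Mertk-KO libraries and 91.2 to 108 in WT hearts, so that Mertk-KO 2 alone lay above WT (log2 fold change 0.93, limma adjusted p 0.147), and Fcrls, an Fc receptor-like gene, had 56.2 in Macrophage-depleted and 88.0 in WT hearts (-0.67, 0.436). Of the adaptors, the B cell chain Cd79b and Nfam1 had the smallest p against WT, Cd79b at 8.26 in Macrophage-depleted and 14.0 in WT hearts (limma adjusted p 0.681) and Nfam1 at 27.5 in LXR-DKO and 39.6 in WT hearts (limma adjusted p 0.459). Between perturbed groups both came closer to the threshold. Cd79b had 19.1 in Mertk-KO and 8.26 in Macrophage-depleted hearts (limma adjusted p 0.0520), and Nfam1 had 60.1 in Mertk-KO and 27.5 in LXR-DKO hearts (limma adjusted p 0.0655). Of 12 phosphatases and other negative regulators that act on these receptors, limma called 0 against WT, with 0, 2 and 0 at an unadjusted p below 0.05 in Macrophage-depleted, Mertk-KO and LXR-DKO hearts. In Mertk-KO against Macrophage-depleted hearts Ptpn6 and Csk were higher and Cblb lower (log2 fold changes 0.71, 0.41 and -0.53, limma adjusted p 0.0337, 0.0324 and 0.0198).

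A further list held 20 genes known to be induced with Trem2 in lipid-laden macrophages. Apoe, the apolipoprotein that Trem2 binds, fell in Macrophage-depleted hearts to 1437 normalised counts, against 2750 in WT hearts (log2 fold change -0.96, limma adjusted p 0.0165), while Trem2 averaged 28.4 in Macrophage-depleted and 25.6 in WT hearts. It was the only one of 17 tested genes of that list called there. In Mertk-KO hearts the lysosomal protease Ctsd was the only one called against WT (log2 fold change 0.39, limma adjusted p 0.0239). Against Macrophage-depleted hearts Apoe, Ctsd, Ctsb, Fabp5 and Plin2 were higher in Mertk-KO hearts, where Trem2 was not called, with log2 fold changes from 0.32 for Ctsd to 1.12 for Apoe. Ms4a6b was the only one of 3 tested relatives of Ms4a7, out of 8, to be called in any contrast, at 70.2 in Mertk-KO hearts against 25.1 in Macrophage-depleted hearts (1.35, limma adjusted p 0.0453).

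Of the transcription factors of myeloid cells, 12 of 13 were tested. Irf1, Irf5 and Klf4 rose in Mertk-KO hearts against WT (log2 fold changes 1.31, 0.92 and 0.73, limma adjusted p 0.0281, 0.0292 and 0.0498), and Mitf, a factor of macrophages, osteoclasts and pigment cells, fell (-0.34, 0.0327). Spi1 averaged 35.4 normalised counts in Macrophage-depleted hearts, 63.7 in Mertk-KO hearts, 35.0 in LXR-DKO hearts and 44.5 in WT hearts and was not called in any contrast. The complement genes C1qa, C1qb and C1qc, whose product recognises bound antibody, were higher in Mertk-KO than in Macrophage-depleted hearts (log2 fold changes 2.26, 1.82 and 2.16, limma adjusted p 0.00931, 0.00658 and 0.0101) and were not called against WT. C3 was lower in the same contrast (-1.12, limma adjusted p 0.0142).

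**Figure D5:**
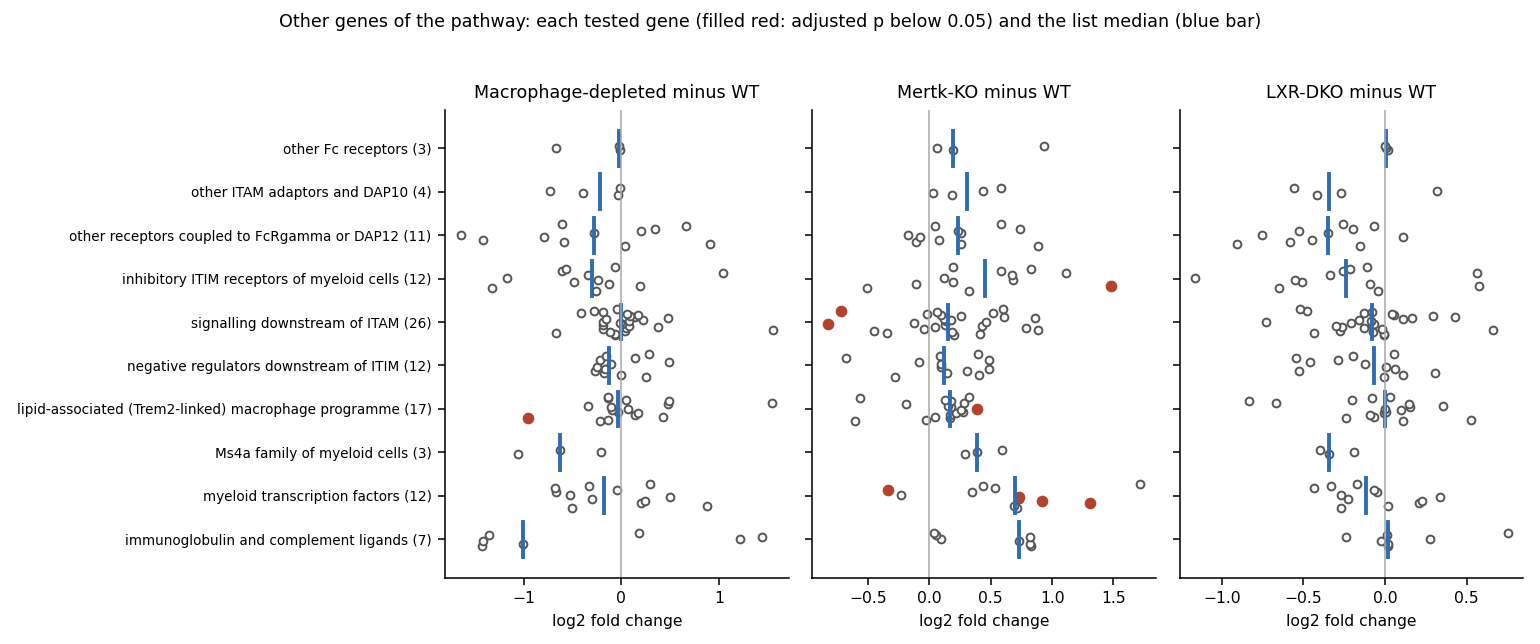
Limma log2 fold change against WT of every tested gene of the 10 pathway lists, 1 point per gene, with the number tested in brackets; filled red points have an adjusted p below 0.05 and the blue bar is the list median. The filled points are Apoe in Macrophage-depleted hearts and Cd72, Malt1, Vav3, Ctsd, Irf1, Irf5, Klf4 and Mitf in Mertk-KO hearts, and the LXR-DKO panel has none.

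Across the 11 libraries, the log values of the 10 genes were correlated pair by pair, as a description of libraries that share groups. The 36 pairs without Trem2 had Pearson's r from -0.10 to 0.95 with a median of 0.75, and the 9 pairs with Trem2 from -0.21 to 0.42 with a median of -0.04. With the group means removed, differences between groups no longer enter. The pairs without Trem2 then had r from -0.15 to 0.96 with a median of 0.71. The pairs with Trem2 had r from 0.034 to 0.71 with a median of 0.50, the highest with Fcgr2b (0.71) and Aif1 (0.69). Fcgr4, which enters the pairs without Trem2, was also weakly tied to most members. Over the libraries as they are, its r was 0.71 with Fcer1g, 0.49 with Tyrobp and -0.21 to 0.38 with the other members. With the group means removed, these were 0.55, 0.29 and -0.15 to 0.37. The 2 genes most like each member over the same libraries, among all genes tested, were often macrophage genes: Lyz2 and C1qb for Fcgr3 (r = 0.98 and 0.97), C1qc and Pf4 for Fcgr2b (0.95 and 0.95), Ctss and Cxcl9 for Fcer1g (0.96 and 0.96), and C1qa and C1qc for Aif1 (0.96 and 0.96). Tyrobp was most like Clec4a1 and Cd74 (0.94 and 0.92), and Fcgr1 most like Arl4c and Clec4a1 (0.98 and 0.95). Lilra5 was most like Apln, which encodes the ligand apelin, and Csf1r (0.97 and 0.96), and Ms4a7 most like Irf4 and Cbr2 (0.96 and 0.93). Fcgr4 had Ly6a and Akip1 (0.90 and 0.90), and Trem2 had Nhs and Btbd16, at 0.87 and 0.83 the weakest match of the 10.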

How the data were processed

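Poly(A) RNA from whole hearts was extracted with Trizol, amplified with the Ovation Single Cell kit and sequenced as Illumina libraries, per the labels' protocols. Tools named in the submitters' processing notes, with no role, are CASAVA 1.8.2, RSEM 1.2.20, kallisto 0.43.1 and cutadapt, with the GRCm38 build; scaling and use of strand are not stated there. Both deposited tables hold all 11 libraries. The first, deposited as normalised counts, is a signal per gene that the values show to be reads scaled by an effective library size after adding 0.5 read. The second holds a signal deposited as normalised TPM.

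The added 0.5 read was removed to give estimated reads, and 58.9% to 62.3% of the low values then came out whole (tolerance 0.01 read), so no test for whole counts was run. The planned unit was a normalised count: estimated reads scaled to the mean effective size of the 11 libraries. Genes with a mean of at least 10 were tested with limma 3.58.1 in R 4.3.3 (eBayes with trend), using log2(normalised count + 1) in 1 model of the 4 groups with 7 residual degrees of freedom, two-sided, with Benjamini-Hochberg adjustment over 13884 genes per contrast and a threshold of 0.05. A fold change on this scale understates the change of low genes. Floors of 3 reads cover counting error only, since amplified reads are not independent molecules. Values are mean ± SD and SE is that of the fold change. The fit was tested on simulated data in which only well-expressed genes were changed. That test does not cover genes as low as Fcgr4 and Lilra5.

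All 10 genes are named whatever they show. Of each other list the text names the genes called in any contrast (at most 4 where more were called, Plin2 being added beside Apoe, Ctsd, Ctsb and Fabp5) or, with none called, the 2 with the smallest p against WT; Syk and Spi1 were added for their roles, and Ccr2 and Csf1r after their values were seen. The members and lists were chosen with earlier results of these data known. Alternatives were the TPM table, pseudocounts of 0.5 and 5, no filter, another scaling, fits of only 2 groups, weights, a replicate block, removal of a length trend and leaving out each library. An ITAM or ITIM search in proteins was not run.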

Additional observations from a re-analysis of the deposited data

How the results depend on the processing

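In Macrophage-depleted against WT hearts, 1 member was called; the number was 0 with the TPM table (mean of at least 10 or 0.5), a pseudocount of 5, no filter, only the 2 groups, voom weights or the replicate block, 2 with weights per library, and 0 to 1 with a library left out. In Mertk-KO against WT hearts, 1 was called; it was 0 with either TPM filter, no filter, only the 2 groups, weights per library or the length trend removed, 2 with voom weights, and 0 to 3 with a library left out. In LXR-DKO against WT hearts it was 0 in all 22 alternatives. In Mertk-KO against Macrophage-depleted hearts, 7 were called; it was 2 with either TPM filter, no filter or weights per library, 0 with only the 2 groups, 4 with the replicate block, and 2 to 7 with a library left out. In LXR-DKO against Macrophage-depleted hearts, 1 was called; it was 0 with the TPM table at a mean of at least 10, 4 with weights per library, and 0 to 1 with a library left out. In Mertk-KO against LXR-DKO hearts it was 0, and 0 to 2 with a library left out. At the TPM mean of at least 10 only Fcer1g and Tyrobp could be tested, and with no filter more genes share the adjustment. Calls over all 13884 genes moved too. In Mertk-KO against WT hearts they fell from 1287 to 1 with only the 2 groups and to 12 with weights per library. In Mertk-KO against Macrophage-depleted hearts they fell from 2911 to 146 and 438. Weights per library raised them from 33 to 219 in Macrophage-depleted against WT hearts and from 450 to 2043 in LXR-DKO against Macrophage-depleted hearts. Other causes were not tested. Same-numbered libraries were not pairs (15 pairs, r from -0.094 to 0.11, 2 above 0.1), and the replicate block left the sign and call of 33 of 38 single-gene values as they were. Directions turned round in some values that had not passed the test: Trem2 in Macrophage-depleted hearts (-0.078 with weights per library, -0.29 to 0.61 with a library left out); in Mertk-KO hearts Ms4a7 (-0.48 with the replicate block, -0.074 with the length trend removed, -0.65 to 0.72), Fcgr1 (-0.13 to 1.27, from 0.57) and Lilra5 (-0.085 to 1.29, from 0.60), both below 0 without Mertk-KO 2; in LXR-DKO hearts Trem2 (-0.17 with weights per library, -0.031 with the length trend removed, -0.38 to 0.39), Lilra5 (0.020 with TPM at a mean of at least 0.5, 0.14 with weights per library, -0.25 to 0.21), Ms4a7 (0.049 with weights per library, -0.25 to 0.16) and Fcer1g (-0.018 to 0.28). The TPM filter at 0.5 was chosen after seeing the data. Fcgr4, Lilra5 and Aif1 rest on few reads, which limits their precision.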
